A study of Mus musculus with 6 samples.

Results

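The genes of the smooth muscle and myofibroblast contractile apparatus, 10 of the 20173 genes in the count table, were taken by their symbols and followed across 6 RNA-Seq libraries: Acta2, Tagln, Myl9, Cnn1, Tpm1, Tpm2, Actg2, Myh11, Cald1 and Des. All 10 were found in the table, and the rule that chose them reads symbols alone, not values. There were 3 libraries of Slit2fl/fl mice, which carry floxed Slit2 alleles, and 3 of Slit2th mice, whose floxed alleles are deleted by a Cre recombinase driven by the Th (tyrosine hydroxylase) promoter. By the RNA-Seq method, the RNA came from sympathetic chains of 3-week-old male mice, kept as neuron cultures for 4 to 5 days. The source is not certain, since the sample labels and other passages give sympathetic ganglions, and the isolation method speaks of dorsal root neurons. They do not say whether each library came from separate mice, so p-values measure the spread between these libraries, which may be technical. Th-Cre is meant to act in cells that express Th, and cells in which it has not acted keep Slit2.

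The contractile apparatus of smooth muscle is built on an actin filament of alpha and gamma smooth muscle actin (Acta2 and Actg2), pulled by a myosin made of the heavy chain Myh11 and the regulatory light chain Myl9. Tropomyosins, caldesmon, calponin and transgelin lie along the actin filament and set its access to myosin, and desmin forms the intermediate filaments around it. Myofibroblasts, the contractile fibroblasts of wounds and cultures, switch on Acta2 and Tagln and lay down matrix. Many of these genes are driven by SRF (serum response factor), which binds the CArG box together with the coactivator myocardin or the MRTF proteins.

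The upstream sequences of Acta2 and Myl9 are printed here since they alone, among the contractile genes with a promoter in the RefSeq table, held a CArG box. The letters searched were CC, then 6 bases of A or T, then GG, with at most 1 of the 6 replaced, in the 250 bases before the annotated start. The box reads as a box on either strand. Promoters were given for 7 of the 10 genes, in 8 entries, with none for Tagln, Actg2 and Myh11. The box stood in 2 of the 8 entries, against 8.59% of the 32851 promoters in the table (1.47% for boxes with no base replaced), and 0.67% of all promoters held at least 2, as Acta2 and Myl9 did. The sequences are from RefSeq on GRCm38.p6, and the capitals mark the boxes. The Acta2 stretch is chr19:34255388-34255467 on the minus strand, 94 to 15 bases before the start, and the Myl9 stretch is chr2:156775293-156775384 on the plus strand, 171 to 80 bases before the start.
Acta2: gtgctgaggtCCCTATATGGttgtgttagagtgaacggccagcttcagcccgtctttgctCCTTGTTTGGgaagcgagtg
Myl9: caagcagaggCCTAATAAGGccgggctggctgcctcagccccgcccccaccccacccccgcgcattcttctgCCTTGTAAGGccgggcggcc
The first Myl9 box had no base replaced, and the second Myl9 box and both Acta2 boxes had 1. The MCAT motif of the TEAD factors (CATTCC on either strand, overlapping none of the boxes) was found before the starts of Acta2, Tpm1 and 1 of 2 Cald1 entries, and in 12.6% of all promoters. These matches describe letters in a window, and no binding was measured.

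Whether reads could be assigned to a single muscle actin depends on how far the actins differ. The last 60 coding bases before the stop codon are shown for the 2 smooth muscle actins and the 2 striated muscle actins, from the GENCODE transcripts, with capitals at the bases that differ from Acta2.
Acta2: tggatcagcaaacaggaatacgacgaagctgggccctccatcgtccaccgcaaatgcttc
Actg2: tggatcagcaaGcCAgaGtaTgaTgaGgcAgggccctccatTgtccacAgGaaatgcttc
Acta1: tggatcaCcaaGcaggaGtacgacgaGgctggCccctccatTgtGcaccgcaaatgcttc
Actc1: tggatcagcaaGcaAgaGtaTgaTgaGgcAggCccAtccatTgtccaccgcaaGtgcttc
Over the whole coding sequence, Acta2 was identical to Actg2 at 83.8%, to Acta1 at 85.4% and to Actc1 at 82.6% of the bases compared. Of the 2146 different 50-base stretches in Acta2 transcripts, 7 (0.326%) also occurred in another gene, the cytoplasmic actin gene Actg1 among them.

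The same search found no shared 50-base stretch for Myl9, Cnn1, Tpm1, Tpm2, Actg2 or Cald1, and 0.391% for Myh11, all shared with Myh9 or Myh10. Tagln was the exception, with 47.6% of its stretches shared. Its exons lie on the minus strand of chromosome 9 (GRCm38, 45929619 to 45936058) and overlap Pcsk7 and Gm48529 on the other strand over 1349 of its 1988 exonic bases. The exons of Des (chromosome 1, 75360329 to 75368579) overlap Gm15179 on the other strand over 220 bases, with 5.81% of its stretches shared. The strand setting of the counting is not given in the sources used here, so reads in the overlapping stretches of Tagln and Des could not be told apart from reads of those neighbours. Gm15179 itself had 1, 1 and 0 counts in Slit2fl/fl and 0 in each Slit2th library.

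Slit2, the deleted gene, was read 139, 85 and 77 times in Slit2fl/fl and 17, 24 and 27 times in Slit2th, given as all values are in the order of replicates 1, 2 and 3. That is 47.7 ± 6.33 CPM (counts scaled to a common library total after TMM normalization, SD, n = 3) against 13.9 ± 2.12 CPM, a log2 fold change of -1.78 (standard error 0.37, adjusted p = 0.422 by edgeR's quasi-likelihood test). The groups did not overlap. Total counts ranged from 1255939 to 3155406 per library, so that 3 counts, taken as the floor of detection for counting error only, stood for 0.958 to 2.64 CPM. Slit2fl/fl replicate 1 stood apart: its log2 CPM correlated across genes with the other 2 libraries of its group at 0.842 and 0.863, where those 2 correlated at 0.938. Slit2th replicate 1 correlated with its group at 0.868 to 0.869, where the other 2 correlated at 0.965. Fitted differences that moved by over 1.5 times without Slit2fl/fl replicate 1 are therefore given with and without it.

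The markers in these libraries did not match their neuronal label closely, and the genes that define smooth muscle cells were hardly read. Th was at 0 in all 6 libraries, and the 12 sympathetic neuron markers in the table summed to 107 to 337 CPM, against 5579 to 19774 CPM for the 12 glia markers and 2579 to 4695 CPM for the 12 fibroblast markers. Of the 10 contractile genes, those that mark differentiated smooth muscle were at or near the floor: Tagln, Cnn1 and Actg2 never exceeded 4 counts, and Myh11 exceeded the floor in 2 libraries. For Tagln this is less certain, since how reads in the stretches shared with its neighbours were counted is not known. Myocd, the gene of myocardin, had 1 count over all libraries. The name smooth muscle is therefore not used for the set, which is called by its role as contractile genes.

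In brief, none of the contractile genes differed between Slit2th and Slit2fl/fl libraries after adjustment. Acta2, Myl9, Tpm2 and Des had lower fitted levels in Slit2th, by log2 fold changes of -1.34 to -1.97, and all 4 had their highest level in the single library Slit2fl/fl replicate 1. Without that library, Acta2 and Des had positive log2 fold changes of 0.21 and 0.60. Tpm1 was level between the groups, and Cald1, a caldesmon gene, was the only tested member with every Slit2th library above every Slit2fl/fl library.

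**Figure D1:**
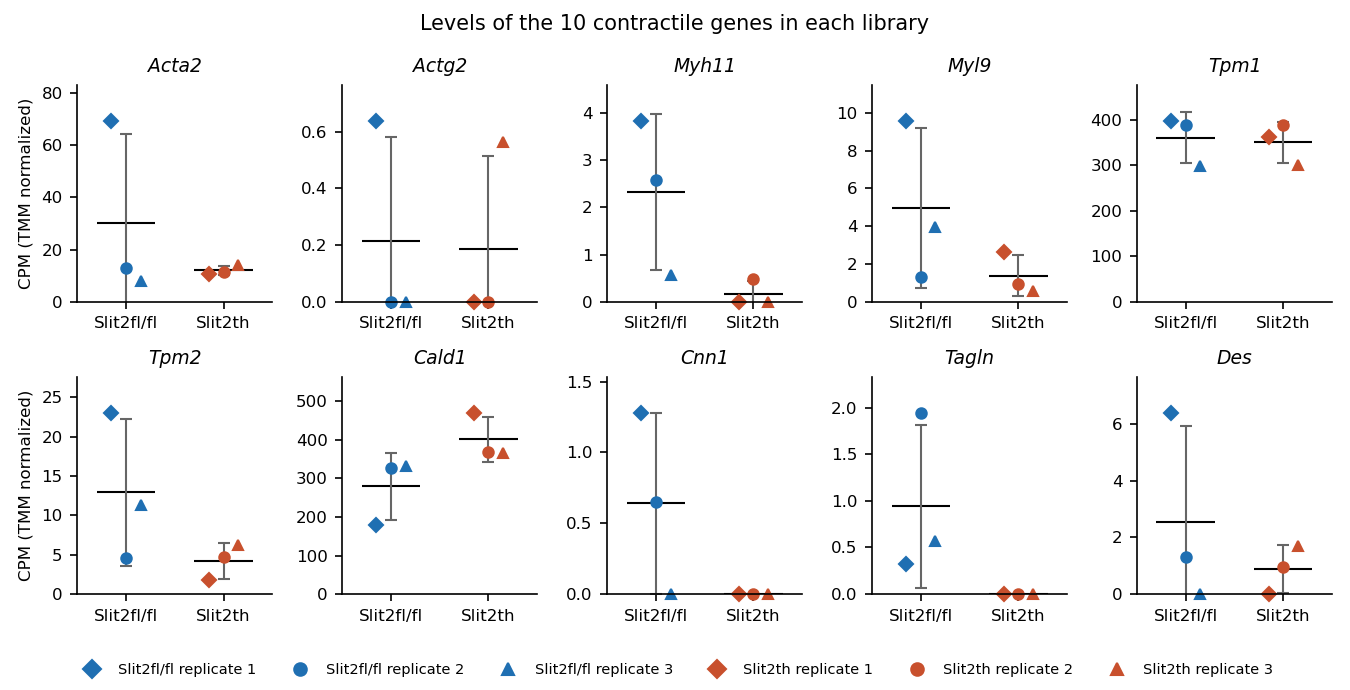
Level of each contractile gene in each library, in CPM after TMM normalization (vertical axes, linear from 0, a scale of its own for each gene). Points are libraries, with the shape giving the replicate number, lines are group means and bars are ±1 SD (n = 3, cut at 0). Slit2fl/fl replicate 1 is the highest library for 8 of the 10 genes, and for Cald1 it is the lowest.

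Acta2 (ENSMUSG00000035783, minus strand of chromosome 19, 34241090 to 34255590, 10 merged exons), which encodes alpha smooth muscle actin, is the usual marker of myofibroblasts. It was counted 217, 20 and 14 times in Slit2fl/fl and 12, 24 and 25 times in Slit2th, or 69.3, 12.9 and 7.95 CPM against 10.6, 11.4 and 14.1 CPM. One library was thus far above a narrow band formed by the other 5, and the groups overlapped. Slit2fl/fl replicate 1 was 6.06 times the median of the other 5 libraries. The group means were 30.1 ± 34.1 and 12.02 ± 1.83 CPM (SD, n = 3 each). The log2 fold change of Slit2th against Slit2fl/fl was -1.34 (standard error 0.75, adjusted p = 0.518 by edgeR's quasi-likelihood test) with all libraries and 0.21 (standard error 0.43, adjusted p = 0.910) without Slit2fl/fl replicate 1. In bulk RNA, fewer cells of a type and less RNA per cell cannot be told apart, for Acta2 or for any gene given here.

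Actg2 (chromosome 6, 83512905 to 83536265), the gamma actin of enteric smooth muscle, had 2, 0 and 0 counts in Slit2fl/fl and 0, 0 and 1 in Slit2th. It was at or under the floor in each library and was not tested. The striated muscle actins Acta1 and Actc1 were at 0 in all 6 libraries. Acta2 was thus nearly the whole of the muscle actin signal, and that signal was small beside the cytoplasmic actins Actb and Actg1. Per kb of exon, these 2 genes together stood at 80.9 times the sum of Acta2 and Actg2 in Slit2fl/fl replicate 1 and at 301 to 735 times that sum in the other 5 libraries.

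Myh11 (chromosome 16, 14194535 to 14291372, 43 merged exons), the myosin heavy chain of smooth muscle, had 12, 4 and 1 counts in Slit2fl/fl and 0, 1 and 0 in Slit2th. It stayed below the filter for testing. Summed over libraries, 17 counts faced 1 count, a ratio of counts per total of 0.0770 with an exact 95% interval of 0.00184 to 0.491 that covers counting error only. Of the 17 counts 12 came from Slit2fl/fl replicate 1, without which 5 counts faced 1 (ratio 0.134, exact 95% interval 0.00283 to 1.196), and the Slit2fl/fl replicate 3 library held 1, as did the highest Slit2th library. The nonmuscle heavy chains Myh9, Myh10 and Myh14, which drive contraction in other cells, stood at 23.7 times Myh11 per kb in Slit2fl/fl replicate 1.

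Myl9 (ENSMUSG00000067818, plus strand of chromosome 2, 156775420 to 156781658), the regulatory light chain, had 30, 2 and 7 counts in Slit2fl/fl and 3, 2 and 1 in Slit2th. In CPM it stood at 9.58, 1.29 and 3.97 against 2.64, 0.952 and 0.563. The 2 highest libraries were Slit2fl/fl, and the third Slit2fl/fl library lay within the Slit2th range. The group means were 4.95 ± 4.23 and 1.39 ± 1.10 CPM (SD, n = 3 each). The log2 fold change was -1.97 (standard error 0.93, adjusted p = 0.473 by edgeR's test), the furthest from 0 of the 6 members tested, and -1.05 (standard error 0.90, adjusted p = 0.775) without Slit2fl/fl replicate 1. Outside that library Myl9 never exceeded 7 counts.

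The tropomyosins behaved unequally. Tpm1 (minus strand of chromosome 9, 67022590 to 67049406, 13 merged exons) had 1248, 600 and 525 counts in Slit2fl/fl and 412, 818 and 533 in Slit2th, the most counts of any member. In CPM it stood at 399, 388 and 298 against 363, 389 and 300.2, so both groups spanned nearly the same range. Its log2 fold change was -0.04 (standard error 0.31, adjusted p = 0.961 by edgeR's test), and it changed sign, to between 0.02 and 0.06, when Slit2fl/fl replicate 1, Slit2fl/fl replicate 2 or Slit2th replicate 3 was left out. Tpm1 makes cytoplasmic as well as muscle isoforms from 1 gene, and gene counts do not separate them.

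Tpm2 (minus strand of chromosome 4, 43514711 to 43523765), the beta tropomyosin, had 72, 7 and 20 counts in Slit2fl/fl and 2, 10 and 11 in Slit2th. In CPM it stood at 23.0, 4.53 and 11.4 against 1.76, 4.76 and 6.20. The 2 highest libraries were Slit2fl/fl replicates 1 and 3 and the lowest was Slit2th replicate 1, while the rest overlapped. The group means were 12.96 ± 9.34 and 4.24 ± 2.26 CPM (SD, n = 3 each). Tpm2 was the only member with an unadjusted p under 0.05 (log2 fold change -1.58, standard error 0.69, unadjusted p = 0.0484, adjusted p = 0.462 by edgeR's test). Without Slit2fl/fl replicate 1 its log2 fold change was -0.85 (standard error 0.65, adjusted p = 0.753).

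Cald1 (ENSMUSG00000029761, plus strand of chromosome 6, 34598500 to 34775473, 16 merged exons) encodes caldesmon, which binds actin and calmodulin and holds back the myosin ATPase, in a long smooth muscle form and a shorter one of other cells. It had 563, 504 and 586 counts in Slit2fl/fl and 533, 774 and 648 in Slit2th, or 179.8, 326 and 333 CPM against 469, 369 and 365 CPM. All 3 Slit2th libraries were above all 3 Slit2fl/fl libraries, and Slit2fl/fl replicate 1 was the lowest. The group means were 279.5 ± 86.4 and 401 ± 59.1 CPM (SD, n = 3 each), and a two-sided exact permutation test of log2 CPM gave p = 0.10, the smallest value possible with 3 in each group. Its fitted log2 fold change was 0.52 (standard error 0.36, adjusted p = 0.573 by edgeR's test) and 0.29 (standard error 0.23, adjusted p = 0.762) without Slit2fl/fl replicate 1. The gap between the groups was narrow, from 333 CPM in Slit2fl/fl replicate 3 to 365 CPM in Slit2th replicate 3.

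The filament-binding proteins calponin and transgelin were almost unread. Cnn1 (plus strand of chromosome 9, 22099216 to 22109630), the calponin of smooth muscle, had 4, 1 and 0 counts in Slit2fl/fl and 0 in each Slit2th library. Tagln, the gene of transgelin or SM22, had 1, 3 and 1 counts in Slit2fl/fl and 0 in each Slit2th library. Both were at or under the floor in nearly all libraries, so no fold is given, and for Tagln the reads may belong to its neighbours. Of these, Gm48529, which holds most of the shared stretches, had 2, 0 and 3 counts in Slit2fl/fl and 0, 0 and 1 in Slit2th, and Pcsk7 had 25, 4 and 4 against 4, 6 and 15. Their cytoplasmic relatives were plain to see. Cnn2 and Cnn3 together stood at 51.0 to 96.3 CPM per kb, and Tagln2 and Tagln3 at 30.1 to 127.7 CPM per kb.

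Des, whose desmin filaments tie the contractile units together in muscle, had 20, 2 and 0 counts in Slit2fl/fl and 0, 2 and 3 in Slit2th. In CPM it stood at 6.39, 1.29 and 0 against 0, 0.952 and 1.69, so that the same single library was high and the other 5 were at or under 3 counts. The log2 fold change was -1.48 (standard error 1.26, adjusted p = 0.641 by edgeR's test) with all libraries and 0.60 (standard error 1.37, adjusted p = 0.922) without Slit2fl/fl replicate 1. Vim, the intermediate filament of mesenchymal and glial cells, stood at 11328 to 19677 CPM in the same libraries.

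**Figure D2:**
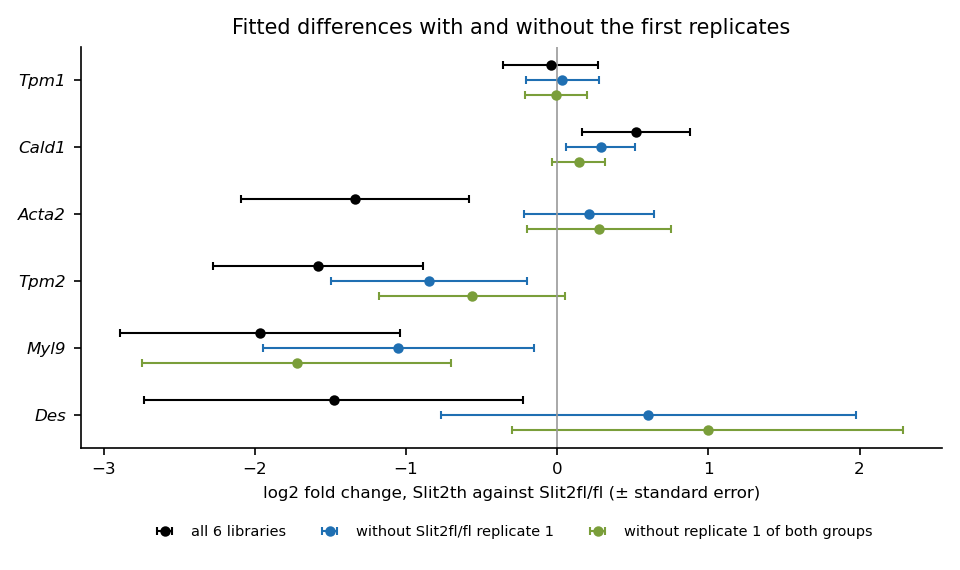
Log2 fold change of Slit2th against Slit2fl/fl (horizontal axis) for the 6 contractile genes tested, with bars of ±1 standard error from edgeR's quasi-likelihood fit, for all 6 libraries, without Slit2fl/fl replicate 1 and without replicate 1 of both groups. Acta2 moves from -1.34 to 0.21 and Des from -1.48 to 0.60 when the first Slit2fl/fl library is left out, while Tpm2 and Myl9 stay negative.

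Over the set, 6 of the 10 genes passed the filter of at least 1 CPM in at least 3 libraries, and 0 of the 6 had an adjusted p under 0.05, as was so for 0% of the 12152 genes tested across the table, where 1309 genes had an unadjusted p under 0.05. At an unadjusted p under 0.05, 1 of the 6 was lower in Slit2th, against 6.78% of all genes tested, and 0 were higher, against 3.99%. Cald1 was the 1 member of the 6 whose groups did not overlap with Slit2th higher, which 8.72% of all tested genes showed, and 0 of the 6 did so with Slit2th lower, against 9.74%. Of the untested members, Tagln and Myh11 had each Slit2th library below each Slit2fl/fl library, for which the share among untested genes was not computed. The Tagln counts were all at or under the floor. For Myh11, Slit2fl/fl replicate 3 and Slit2th replicate 2 each had 1 count. The shares of the tested members rest on only 6 genes. The median log2 fold change of the 6 was -1.41, where that of all tested genes was -0.05. Without Slit2fl/fl replicate 1 it was 0.12, and the number of members at an unadjusted p under 0.05 was 0, as it was without Slit2th replicate 2 or 3. It was 2 without Slit2fl/fl replicate 2, and 3 (Acta2, Myh11 and Tpm2, of 10 tested) with no filter on low counts. In these settings 1649 of 11828 and 1836 of 17358 genes tested passed the same threshold in either direction.

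Most of the contractile genes, though not all, had their highest level in the same library. Slit2fl/fl replicate 1 held the highest level of 8 of the 10 genes and of 5 of the 6 tested, where 29.8% of all tested genes had their highest level in that library. Among the 8, Actg2 and Cnn1 had only 2 and 4 counts there. The exceptions were Tagln, highest in Slit2fl/fl replicate 2, and Cald1, highest in Slit2th replicate 1. Against the median of the other 5 libraries, Slit2fl/fl replicate 1 stood at 7.40 times for Myl9, 6.71 times for Des, 6.06 times for Acta2 and 4.83 times for Tpm2, but at 1.10 times for Tpm1 and 0.493 times for Cald1. The first 4 of these ratios were larger than those of 92.3% to 96.4% of all tested genes, and that of Tpm1 was larger than 52.1%. The set thus fell into 2 kinds, with Tpm1 and Cald1 apart from the rest.

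Tpm1 and Cald1 made up most of the counts. They held 83.5% of the summed CPM of the 10 genes in Slit2fl/fl replicate 1 and 96.3% to 98.2% in the other libraries. The other 8 genes summed to 114, 25.2 and 24.4 CPM in Slit2fl/fl against to 14.96, 18.6 and 23.1 CPM in Slit2th. In this sum the lowest Slit2fl/fl library, at 24.4 CPM, lay just above the highest Slit2th library, at 23.1 CPM. The split of Tpm1 and Cald1 from the rest was drawn from these same values, so this order is no test of a group difference. All 10 genes together summed to 693, 740 and 655 CPM in Slit2fl/fl. In Slit2th they summed to 847, 777 and 688 CPM, and the groups overlapped.

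Levels compared between genes per kb of exon followed a steep order. Tpm1 had a mean of 54.9 CPM per kb over the 6 libraries, Cald1 28.3, Acta2 9.58, Tpm2 2.96 and Myl9 2.73. Des at 0.458, Tagln at 0.237, Myh11 at 0.164, Actg2 at 0.129 and Cnn1 at 0.117 CPM per kb came last. Tpm1 was above Cald1 in 6 of 6 libraries, Cald1 above Acta2 in 5, Acta2 above Tpm2 in 5 and Myl9 above Des in 6. The order of Tpm1 and Cald1 rests on merged exon lengths of 6485 and 12041 bases, which join the exons of all isoforms. In CPM, Cald1 was above Tpm1 in Slit2fl/fl replicate 3 (333 against 298). The same held in Slit2th replicates 1 (469 against 363) and 3 (365 against 300.2). Tpm2 was above Myl9 in 4 of 6 libraries, and the 5 lowest genes were not separated, each being above the next in 1 to 4 of 6 libraries.

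**Figure D3:**
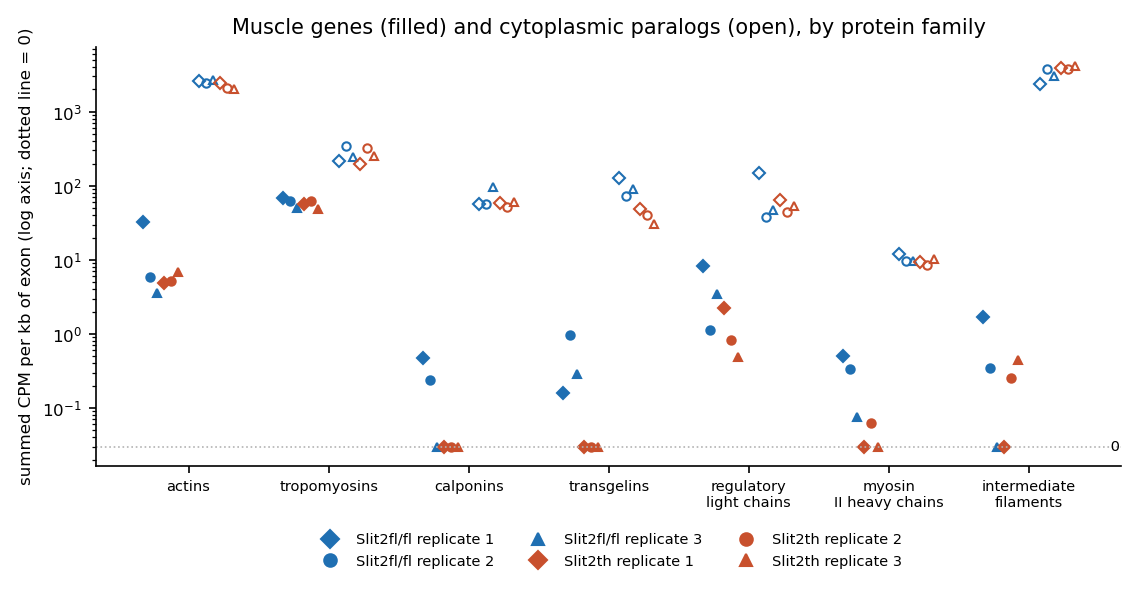
Summed level per kb of exon (CPM per kb, log axis, with genes at 0 drawn on the dotted line) of the muscle members (filled) and the cytoplasmic paralogs (open) of 7 protein families in each library. Colour gives the group and shape the replicate. In each family and library the cytoplasmic genes are higher, by 3.09 to 5.62 times for the tropomyosins and by 80.9 to 735 times for the actins. The muscle sum of the tropomyosins is mostly Tpm1, whose counts do not separate muscle from cytoplasmic isoforms.

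As a description of how far the members varied together, log2 CPM over the 6 libraries had a Pearson correlation of 0.925 between Acta2 and Des, 0.682 between Acta2 and Tpm2, 0.666 between Tpm2 and Myl9 and 0.647 between Acta2 and Myl9. It was 0.661 between Des and Tpm2 and 0.355 between Des and Myl9. Tpm1 was less like these 4 genes, at -0.0365 with Tpm2, 0.232 with Myl9, 0.443 with Des and 0.489 with Acta2. Cald1 ran against the other 5 tested genes, at -0.337 to -0.909. These values share 6 libraries, of which 1 lies far from the others, and for Des rest on few counts. Over the same libraries, the 10 genes nearest to the mean z-score of the 6 tested members, among 7475 other genes with a mean of at least 10 CPM, were Txlna, Hmces, Ruvbl1, H6pd, Cxxc5, Flot2, Pgd, Myo1c, Trmt1 and Pfdn2, with correlations of 0.990 to 0.998. The 5 nearest to Acta2 alone were Cdca8, Nsd2, Ctr9, Gtf2i and Mrps12, at 0.988 to 0.992. All 15 were highest in Slit2fl/fl replicate 1: Ruvbl1, an ATPase of chromatin complexes, was at 65.2 CPM there and at 1.69 to 3.23 CPM in the other 5 libraries. None of the 15 belongs to the contractile apparatus of smooth muscle, although Myo1c is an unconventional myosin.

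The partners of the contractile genes were read from a list of 24 regulators and anchors, of which 18 were tested. Their median log2 fold change was -0.59, with 6 positive and 12 negative values. None passed after adjustment. At an unadjusted p under 0.05, 0 of the 18 were higher and 3 were lower, against 3.99% and 6.78% of all tested genes, and these 3 were Fhl1, Csrp2 and Ppp1r12b. Fhl1, a LIM protein of muscle, stood at 166, 29.1 and 37.5 CPM in Slit2fl/fl against 10.6, 18.1 and 18.6 CPM in Slit2th (log2 fold change -2.29, standard error 0.68, adjusted p = 0.422 by edgeR's test). Csrp2, a LIM protein of smooth muscle, stood at 32.3, 11.0 and 26.7 against 4.40, 9.05 and 5.63 CPM (log2 fold change -1.85, standard error 0.54, adjusted p = 0.422). For both, each Slit2th library was below each Slit2fl/fl library. Over the list, the groups did not overlap in 3 of the 18 genes with Slit2th lower and in 1 with Slit2th higher. Among all tested genes these shares were 9.74% and 8.72%. Without Slit2fl/fl replicate 1, the log2 fold change was -1.06 (standard error 0.38) for Fhl1 and -1.53 (standard error 0.54) for Csrp2, each with an adjusted p of 0.656 by edgeR's test, and the median of the list was -0.16.

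Ppp1r12b, a targeting subunit of myosin phosphatase, was different: it reached 217 CPM in Slit2fl/fl replicate 1, against 3.23 to 9.68 CPM in the other 5 libraries, so its log2 fold change of -3.37 (standard error 1.32, adjusted p = 0.440 by edgeR's test) rested on that library, and without it the value was 0.39 (standard error 0.57). Lpp, an adaptor at adhesions, stood at 377, 839 and 851 CPM in Slit2fl/fl against 581, 954 and 1123 CPM in Slit2th. Like Cald1, it was lowest in Slit2fl/fl replicate 1, and the groups overlapped. Mustn1, a small nuclear protein of the musculoskeletal system, was at 904 CPM in that library and at 102 to 377 CPM elsewhere, with a log2 fold change of -1.002 that became 0.36 without that library.

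All 22 cytoplasmic paralogs were tested, and 19 of them had negative log2 fold changes (median -0.51). At an unadjusted p under 0.05, 3 of the 22 were lower and 0 higher, against 6.78% and 3.99% of all tested genes, and none passed after adjustment. The 3 were Tagln2, Tagln3 and Flna. Tagln2, the transgelin of nonmuscle cells, stood at 262, 136 and 177 CPM in Slit2fl/fl against 101.2, 82.8 and 60.8 CPM in Slit2th (log2 fold change -1.23, standard error 0.38, adjusted p = 0.422 by edgeR's test). Tagln3, its neuronal relative, stood at 2.24, 9.06 and 7.38 against 0, 0.952 and 1.13 CPM (log2 fold change -2.88, standard error 0.93, adjusted p = 0.422). Flna, the actin crosslinker filamin A, stood at 483, 249.7 and 287 against 241, 163 and 146 CPM. In these 3 genes, and in 4 of the 22 in all, each Slit2th library lay below each Slit2fl/fl library, against 9.74% of all tested genes. Without Slit2fl/fl replicate 1, 14 of the 22 were negative (median -0.21), and Flna was at -0.54 (standard error 0.29). The number of lower paralogs was 1 without Slit2th replicate 3 and 6 without replicate 1 of both groups. In these settings 823 of 11736 and 1999 of 11473 genes tested had an unadjusted p under 0.05 in either direction.

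By mean CPM over the libraries, the cytoplasmic genes after Vim were Actb, at 6426, 6084 and 6743 CPM in Slit2fl/fl against 6119, 5073 and 5046 CPM in Slit2th, and Myl6, whose place rests on Slit2fl/fl replicate 1, with 20640 of its counts there and 196 to 1190 in each other library. Actb varied little. Myl6, the essential light chain of nonmuscle and smooth muscle myosin, stood at 6592, 153 and 307 CPM in Slit2fl/fl against at 1047, 107 and 110.4 CPM in Slit2th. The first replicate was the highest of each group, and in Slit2fl/fl it was 43.0 times the median of the other 5 libraries, a ratio larger than that of 99.9% of all tested genes. The log2 fold change of Myl6 was -2.48 with all libraries and 0.90 (standard error 1.04) without that library.

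**Figure D4:**
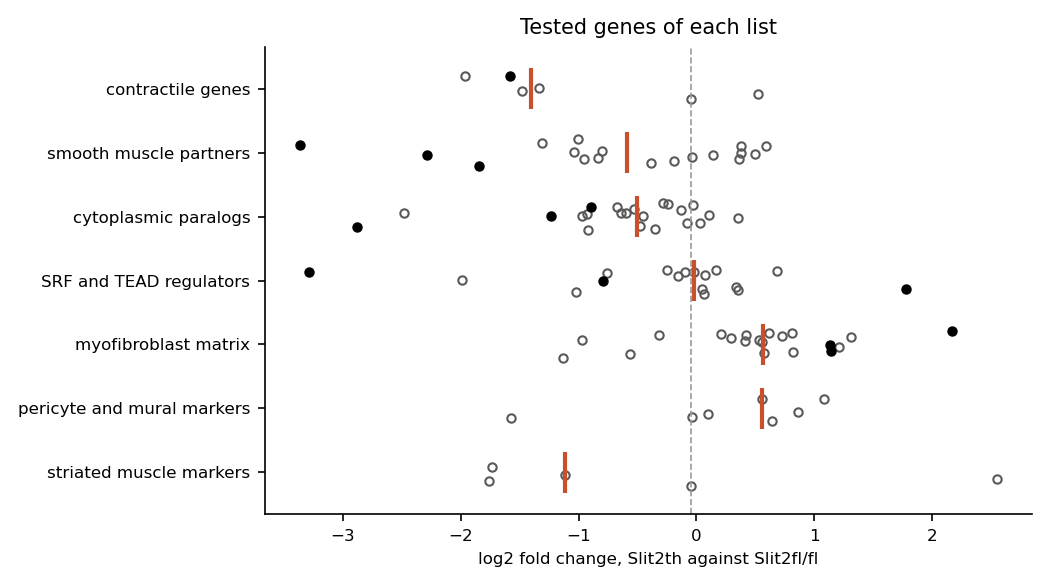
Log2 fold change of Slit2th against Slit2fl/fl (horizontal axis) for each tested gene of 7 lists. Each point is a gene, filled where the unadjusted p of edgeR's quasi-likelihood test was under 0.05, red bars are list medians and the dashed line is the median of all 12152 tested genes (-0.05). With all libraries the contractile genes have a median of -1.41 (6 genes), which is 0.12 without Slit2fl/fl replicate 1, and the matrix genes of myofibroblasts lie mostly above 0 (median 0.57, 20 genes).

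The regulators and their immediate targets did not move in 1 direction. Of 20 in the table, 17 were tested, with 8 positive and 9 negative log2 fold changes and a median of -0.02. Srf was not tested, with 2, 0 and 1 counts in Slit2fl/fl and 0, 0 and 1 in Slit2th. Tead2, a TEAD factor of developing tissue, and Rhoa, the GTPase upstream of MRTF and of myosin phosphorylation, were lower at an unadjusted p under 0.05, which makes 2 of the 17 against 6.78% of all tested genes. Ccn2, a target of YAP and TEAD, was the 1 higher, against 3.99%. Tead2 stood at 208, 56.3 and 28.4 CPM in Slit2fl/fl against 4.40, 16.2 and 8.45 CPM in Slit2th (log2 fold change -3.29, standard error 0.79, adjusted p = 0.422 by edgeR's test). Without Slit2fl/fl replicate 1 its log2 fold change was -2.09 (standard error 0.57, adjusted p = 0.628 by edgeR's test). Rhoa stood at 149, 92.5 and 119 against 85.4, 56.7 and 65.9 CPM. Ccn2 stood at 7.03, 16.2 and 8.51 against 29.9, 37.1 and 40.6 CPM (log2 fold change 1.78, standard error 0.45, adjusted p = 0.422). The groups did not overlap for any of the 3. Over the list they did not overlap in 3 genes with Slit2th lower and in 2 with Slit2th higher, against 9.74% and 8.72% of all tested genes. The number of lower genes was 1 without Slit2fl/fl replicate 1 and without Slit2th replicate 2 or 3. Tead1, at 286, 479 and 405 against 479, 533 and 486 CPM, was the TEAD factor with the most counts, and Egr1 and Rock2, the other genes of this list with the most counts, overlapped between the groups.

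The matrix and receptor genes of myofibroblasts mostly had positive log2 fold changes, with and without Slit2fl/fl replicate 1. All 20 were tested, 16 were positive, and the median was 0.57 (15 positive and a median of 0.48 without that library). At an unadjusted p under 0.05, 3 of the 20 were higher and 0 lower, against 3.99% and 6.78% of all tested genes, none passed after adjustment, and in 8 of the 20 all Slit2th libraries were above all Slit2fl/fl libraries, against 8.72% of all tested genes. Lox, which crosslinks collagen, stood at 7.98, 30.4 and 27.2 CPM in Slit2fl/fl against 73.1, 103 and 115 CPM in Slit2th (log2 fold change 2.17, standard error 0.52, adjusted p = 0.422 by edgeR's test). Tnc, the matrix protein tenascin C, stood at 293, 232 and 296 against 974, 440.0 and 391 CPM. Col3a1 stood at 50.1, 159 and 81.2 against 158, 215 and 265 CPM, with 1 library of each group overlapping. Col1a2 and Col1a1, the chains of type I collagen, had log2 fold changes of 0.42 and 0.29 and overlapped between the groups. Without replicate 1 of both groups, 12 were higher and 1 was lower at an unadjusted p under 0.05. In that setting 1999 of 11473 genes tested passed the same threshold in either direction, against 1309 of 12152 with all libraries.

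Markers of cells that carry contractile genes were checked beside these results. Of 12 pericyte and mural markers, 7 were tested, with a median log2 fold change of 0.56, 0 at an unadjusted p under 0.05, and summed levels of 206 to 325 CPM in Slit2fl/fl against 323 to 485 CPM in Slit2th. Most of that sum was Mcam, at 121 to 260.1 CPM in Slit2fl/fl against 277 to 368 CPM in Slit2th, whereas Rgs5, the defining pericyte gene of the list, was at 4.40 to 21.4 CPM. Of the 7 log2 fold changes 5 were positive and 2 negative, those of Rgs5 (-0.04) and Cspg4 (-1.57). Without Slit2fl/fl replicate 1, Rgs5 was at 0.03 (standard error 0.76) and Cspg4 did not pass the filter. In that setting 5 of the 6 markers tested were positive and 1 was negative. Higd1b, which was not tested, had 37, 0 and 13 counts in Slit2fl/fl and 0 in each Slit2th library. Of 21 striated muscle markers, 14 were in the table, 6 of these were at 0 in all libraries, and the 14 summed to 7.76 to 30.3 CPM in Slit2fl/fl against 7.89 to 23.8 CPM in Slit2th.

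Other markers moved with Slit2fl/fl replicate 1 or with the groups. The glia markers were lowest in that library (5579 CPM, against 10562 to 19774 CPM elsewhere), although Mbp, a myelin gene, was at 1048 CPM there and at 88.0 to 138 CPM elsewhere. The endothelial markers were highest in it (132 CPM, against 42.0 to 58.1 CPM), through Egfl7 (97.7 CPM) and Emcn (26.5 CPM), while the defining genes Pecam1 and Cdh5 were at 2.55 and 1.92 CPM there and at 2.59 to 7.92 and 1.76 to 10.8 CPM elsewhere. Macrophage markers summed to 127, 69.9 and 36.3 CPM in Slit2fl/fl against 665, 126 and 145 CPM in Slit2th. Their highest sum was thus that of Slit2th replicate 1 alone, and the groups overlapped. Fibroblast markers summed to 2579 to 3325 CPM in Slit2fl/fl against 3443 to 4695 CPM in Slit2th, and proliferation markers to 385 to 413 against 131 to 238 CPM. The fibroblast list shares Col1a1, Col1a2 and Col3a1 with the matrix genes, so the 2 lists are not independent. The part of all these markers in the levels of the contractile genes was not tested.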

How the data were processed

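The authors aligned the reads with HISAT2 and deposited whole-number counts per gene, not normalized. Their paper names mm10 and the submitters' notes name a later mouse build. The counting program, strand setting and annotation release are not given in the sources used here. Positions, exon lengths and overlaps are from GENCODE M21 (GRCm38), in which 20159 of 20173 identifiers were found. From the counts, genes with at least 1 CPM in at least 3 libraries were normalized by TMM and compared with edgeR 4.0.16 in R 4.3.3 (quasi-likelihood test, no covariates, Benjamini-Hochberg adjustment over all 12152 genes, threshold 0.05). Standard errors are the log2 fold change divided by the square root of F. Levels between genes were divided by the merged exon length. Single genes were compared on log2 CPM (prior count 2) by exact permutation, two-sided. On simulated counts with the spread of the full comparison, 39 of 200 genes with a 4-fold change and 192 of 200 with a 16-fold change were recovered. Alternatives used limma 3.58.1 and DESeq2 1.42.0, other normalizations and filters, the replicate number as a block, thinning to 1255939 counts, and leaving out libraries.

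The members and all lists were chosen with earlier results of these data known. Named from each list of partners, paralogs, regulators and matrix genes were the 3 genes with the highest mean CPM and those with an unadjusted p under 0.05; a gene that this rule names is not reported here. A few counts of marker genes at or near 0 (Myocd, Srf, Th, Acta1, Actc1, Pcsk7) were given after their values were seen.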

Additional observations from a re-analysis of the deposited data

How the results depend on the processing

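No contractile gene passed the adjusted threshold under any of the 17 alternatives, where the smallest adjusted p of a member was 0.310 (Tpm2). Over all genes, 0 calls became 7 without a filter, 34 with DESeq2 (which gave no adjusted p for Myl9, Tpm2 and Des), 17 with edgeR's exact test, 377 without replicate 1 of both groups, and 0 to 1 with 1 library left out (1 without Slit2fl/fl replicate 1). The median log2 fold change of the tested members (-1.41) was -0.71 with 1 CPM required in all 6 libraries, which left 4 members, -0.75 with limma voom, 0.068 without replicate 1 of both groups and -1.82 to 0.12 with 1 library left out. Acta2 was at 0.21 and Des at 0.60 without Slit2fl/fl replicate 1, and at 0.28 and 0.996 without replicate 1 of both groups. With 1 library left out, Acta2 ranged from -1.87 to 0.21, Des from -2.14 to 0.60 and Tpm1 from -0.23 to 0.064, positive without Slit2fl/fl replicate 1 or 2 or Slit2th replicate 3 (0.034, 0.017 and 0.064). Myl9 and Tpm2 stayed negative and Cald1 positive wherever they were fitted.

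Same-numbered libraries deviated together with correlations of 0.292, 0.245 and 0.0808. The libraries numbered 1 were each other's best partner, whereas Slit2fl/fl replicate 2 and Slit2th replicate 3 were each other's best. The replicate numbers were therefore not taken to pair all libraries, and a factor shared by the first replicates was not tested. With the replicate block the median was -0.74, 0 genes passed after adjustment and 1614 before it, with no member among them. The size of difference that could be found was not tested at the counts of each member. Differences may have been missed in members with many counts as well as in those with few.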
